A study of Mus musculus with 8 samples.

Results

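Gfi1 and Gfi1b, the genes of a pair of related transcriptional repressors, were followed in H3K27ac HiChIP of mouse HPC-7 blood progenitor cells. The units described are chromatin loops. A loop was taken when one of its 5 kb bins held the canonical start site of Gfi1 or Gfi1b in the GENCODE annotation of GRCm39 (start-site loops), or when both of its bins lay within 150 kb of that start-site bin. This gave 136 different loops out of 214313 in all lists together, 56 around Gfi1 and 80 around Gfi1b, of which 7 each touched the start-site bin. The rule used positions and no measured value.

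In HiChIP, DNA pieces in contact inside the nucleus are ligated and the products are pulled down with an antibody, which was directed here at H3K27ac, the acetylation found on active enhancers and promoters. The cells expressed an ectopic isoform of the transcription factor CEBPA, either full-length p42 or p30, the truncated product of leukaemia-associated mutations, and were left untreated (UT) or given the Toll-like receptor ligand LPS for 2 h at 100 ng/mL. The 4 groups had 2 libraries each, 8 in all, and each group was deposited as 1 pooled list of significant loops. Where 4 values follow each other they stand for p30 UT, p30 LPS, then p42 UT, p42 LPS. No spread between replicates can be given, and every difference below compares lists and not conditions.

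All 4 groups were HPC-7, a multipotent mouse progenitor line that depends on stem cell factor (SCF). According to the study's methods, both isoforms were delivered by retroviral transduction into cells with very little CEBPA of their own, so that isoform levels are those of a transgene. The labels do not say whether p30 and p42 were the constitutive proteins or the fusions that enter the nucleus with 4-hydroxytamoxifen, nor whether a line was 1 clone. By the study's methods the 2 libraries of a group came from separate experiments on a cell line.

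GFI1 and GFI1B are zinc-finger proteins that bind DNA through motifs with an AATC core. Through their N-terminal SNAG domain they recruit the histone demethylase LSD1 (Kdm1a) and the CoREST proteins (Rcor1 to Rcor3), and silence their targets. GFI1 restrains the cycling of haematopoietic stem cells and is needed for neutrophil and lymphoid development, whereas GFI1B is needed for the erythroid and megakaryocytic lineages. Both genes are known to be driven by distal enhancers bound by blood factors of the GATA, SCL (Tal1), ETS and RUNX families, and each protein is known to repress its own gene and that of the other.

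Both genes are read from the minus strand, so that downstream here means lower coordinates. Gfi1 (ENSMUSG00000029275.19) spans chr5:107864523-107873902 in GRCm39, and its canonical start site at 107872209 lay in the bin 107870001 to 107875000, which held 3 of its 3 annotated starts. Gfi1b (ENSMUSG00000026815.15) spans chr2:28499462-28511994 and starts at 28511994, in the bin 28510001 to 28515000, which held 1 of its 2 annotated starts. Loops are named below by the distance of the partner bin from the start-site bin.

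The promoters are shown because the start-site bins hold them. RefSeq promoter sequences, from a table in build GRCm38.p6, were found for both genes and placed on GRCm39 by an exact match. Each is printed 5′ to 3′ on the gene's strand, from 250 bases before the start site through the first 20 transcribed bases, with capitals for matches to any of 9 letter patterns searched on both strands. The CEBP pattern was TTGCNNAA and that shared by CEBP and ATF proteins was TGATGNAA. The AP-1 pattern, for dimers of FOS and JUN proteins, was TGANTCA. For GATA factors the letters were GATAA, and the E-box with GATA bound by SCL and GATA proteins was read as CTG followed after 7 to 9 bases by the GATA letters. The ETS pattern was AGGAAG and the RUNX pattern, known from core-binding factor, was TGTGGT. The pattern of GFI1 and GFI1B themselves was AAATCA, and the NF-kB pattern was GGGA, any 2 bases, T, any base and CC. The E-box with GATA pattern contains that for GATA, and other patterns can overlap.
Gfi1 promoter, chr5:107872190-107872459: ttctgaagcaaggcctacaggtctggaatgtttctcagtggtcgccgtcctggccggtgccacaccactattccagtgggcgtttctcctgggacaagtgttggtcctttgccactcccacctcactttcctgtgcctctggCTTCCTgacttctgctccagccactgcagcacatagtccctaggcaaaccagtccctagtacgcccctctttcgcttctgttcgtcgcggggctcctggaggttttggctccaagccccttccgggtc
Gfi1b promoter, chr2:28511975-28512244: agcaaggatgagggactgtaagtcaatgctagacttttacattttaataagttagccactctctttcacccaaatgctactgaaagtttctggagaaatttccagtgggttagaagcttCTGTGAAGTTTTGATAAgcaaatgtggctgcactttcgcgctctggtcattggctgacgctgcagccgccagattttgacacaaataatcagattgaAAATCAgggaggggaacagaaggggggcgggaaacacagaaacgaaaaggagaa

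The Gfi1 promoter shown, at the canonical start, held 1 match, to the ETS pattern, whose first base lay 108 bases before the start. Of all 32851 promoter entries in the table, each 300 bases long, 35.4% held this pattern. The Gfi1b promoter held an E-box with GATA, which began 131 bases before the start and was found in 2.35% of all entries, and a GFI pattern 34 bases before the start, found in 4598 entries. The GATA part of the first match alone was found in 25.4%. A second RefSeq entry of Gfi1, with its start at 107873671 and not shown, held a CEBP match 143 bases before that start, found in 10.8% of entries, and an NF-kB match 71 bases before it, found in 4.01%. Such matches are descriptions of letters, not binding sites.

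The cell type was checked against marker genes by counting start-site loops. In p30 UT, 12 of 12 progenitor genes had at least 1 such loop, as they did in the other 3 lists. This was so for 2 of 7 lymphoid, 2 of 6 erythroid, 2 of 5 mature neutrophil and 1 of 7 non-haematopoietic genes in p30 UT. Hba-a1, Hbb-bs, Pax5, Ebf1, Alb and Col1a1 had none in any list. The genes with the most went the other way. Klf1 (erythroid) had 2, 5, 11 and 6, and Cd79a (lymphoid) had 3, 2, 4 and 2. Ngp (mature neutrophil) had 3, 7, 8 and 2, and Myod1 (non-haematopoietic) had 2, 2, 1 and 0. Mature neutrophil genes had loops in 3 of 5 cases in p30 LPS and in 4 of 5 in both p42 lists, and their part in the differences below was not tested. The lists held 80489, 94609, 158233 and 78591 loops, drawn from 14503330 to 18999991 modelled contacts, so loop counts at the start site and within 150 kb are also given for lists of equal size, the 78591 most significant loops of each by q-value.

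The loops of Gfi1 were concentrated in the lists of p42 cells. Its start-site bin took part in 1 and 0 loops in the p30 lists (UT, LPS), and in 6 and 2 loops in those of p42. Within 150 kb the counts were 7, 0, 47 and 12 in the same order. In lists of equal size they became 7, 0, 17 and 12 within 150 kb, with the p42 lists still above both p30 lists. At the start site itself they became 1, 0, 0 and 2, so that p42 UT no longer stood above p30 UT, and the count of 6 rested on loops with larger q-values.

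Around Gfi1b the start site kept almost the same number of loops in every list. There were 5, 5, 5 and 4, and 5, 4, 4 and 4 in lists of equal size. Within 150 kb the counts were 36, 53, 53 and 29, and 36, 46, 29 and 29 at equal size. Of the 80 different loops there, 19 were in all 4 lists and 37 in 1 list only, whereas of the 56 around Gfi1 none was in all 4 and 48 were in 1 list only.

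**Figure D1:**
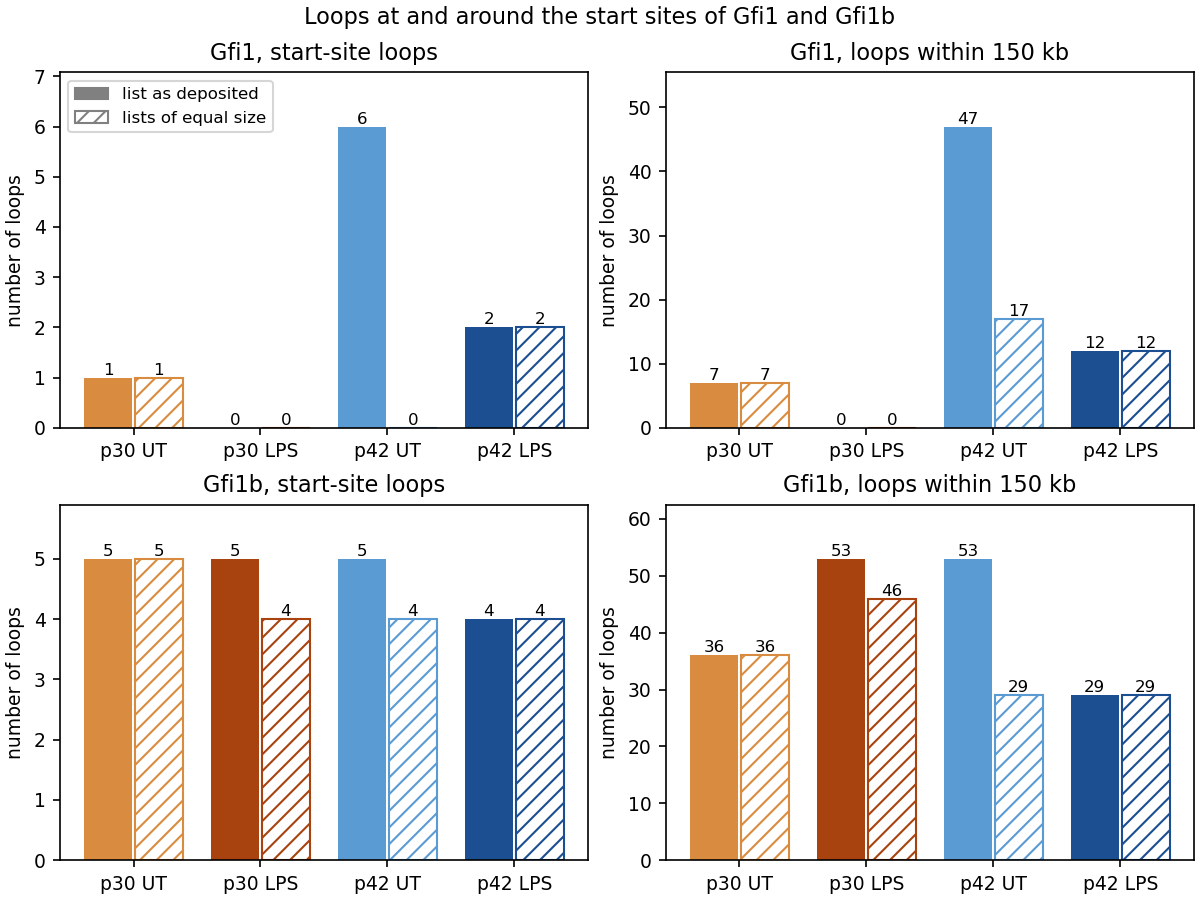
Number of loops at the start-site bin (left) and within 150 kb of it (right) for Gfi1 (top) and Gfi1b (bottom) in each pooled list. Filled bars are the lists as deposited and hatched bars the lists of equal size; Gfi1 has 0 loops in p30 LPS in every panel, and its 47 loops within 150 kb in p42 UT become 17 at equal size.

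Among protein-coding genes with a start-site loop in p42 UT, 54.2% had fewer such loops than Gfi1 and 46.7% fewer than Gfi1b. In p30 UT no gene with a start-site loop had fewer than Gfi1, since its count was 1, and 66.4% had fewer than Gfi1b. Of 21770 protein-coding genes, 71.2% had fewer loops within 150 kb than Gfi1 in p42 UT and 53.0% had fewer in p30 UT, against 73.3% and 79.2% for Gfi1b.

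The p30 LPS list held no bin anywhere near Gfi1. The nearest listed bins were 270 kb downstream and 195 kb upstream, and no loop spanned the start site. The other lists had a listed bin 5 kb downstream and 5 or 10 kb upstream. Over all 21770 protein-coding genes, 32.0% had no loop within 150 kb in p30 LPS. Of these genes, 6262 had at least as many loops within 150 kb in p42 UT as Gfi1. Among the 6262, 1 had none in p30 LPS, Gfi1 itself, and the median there was 62. That group was set by the count of Gfi1, and no test was made. A pair missing from a list was not significant there and its contacts are unknown, so this absence is not a contact count of 0.

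**Figure D2:**
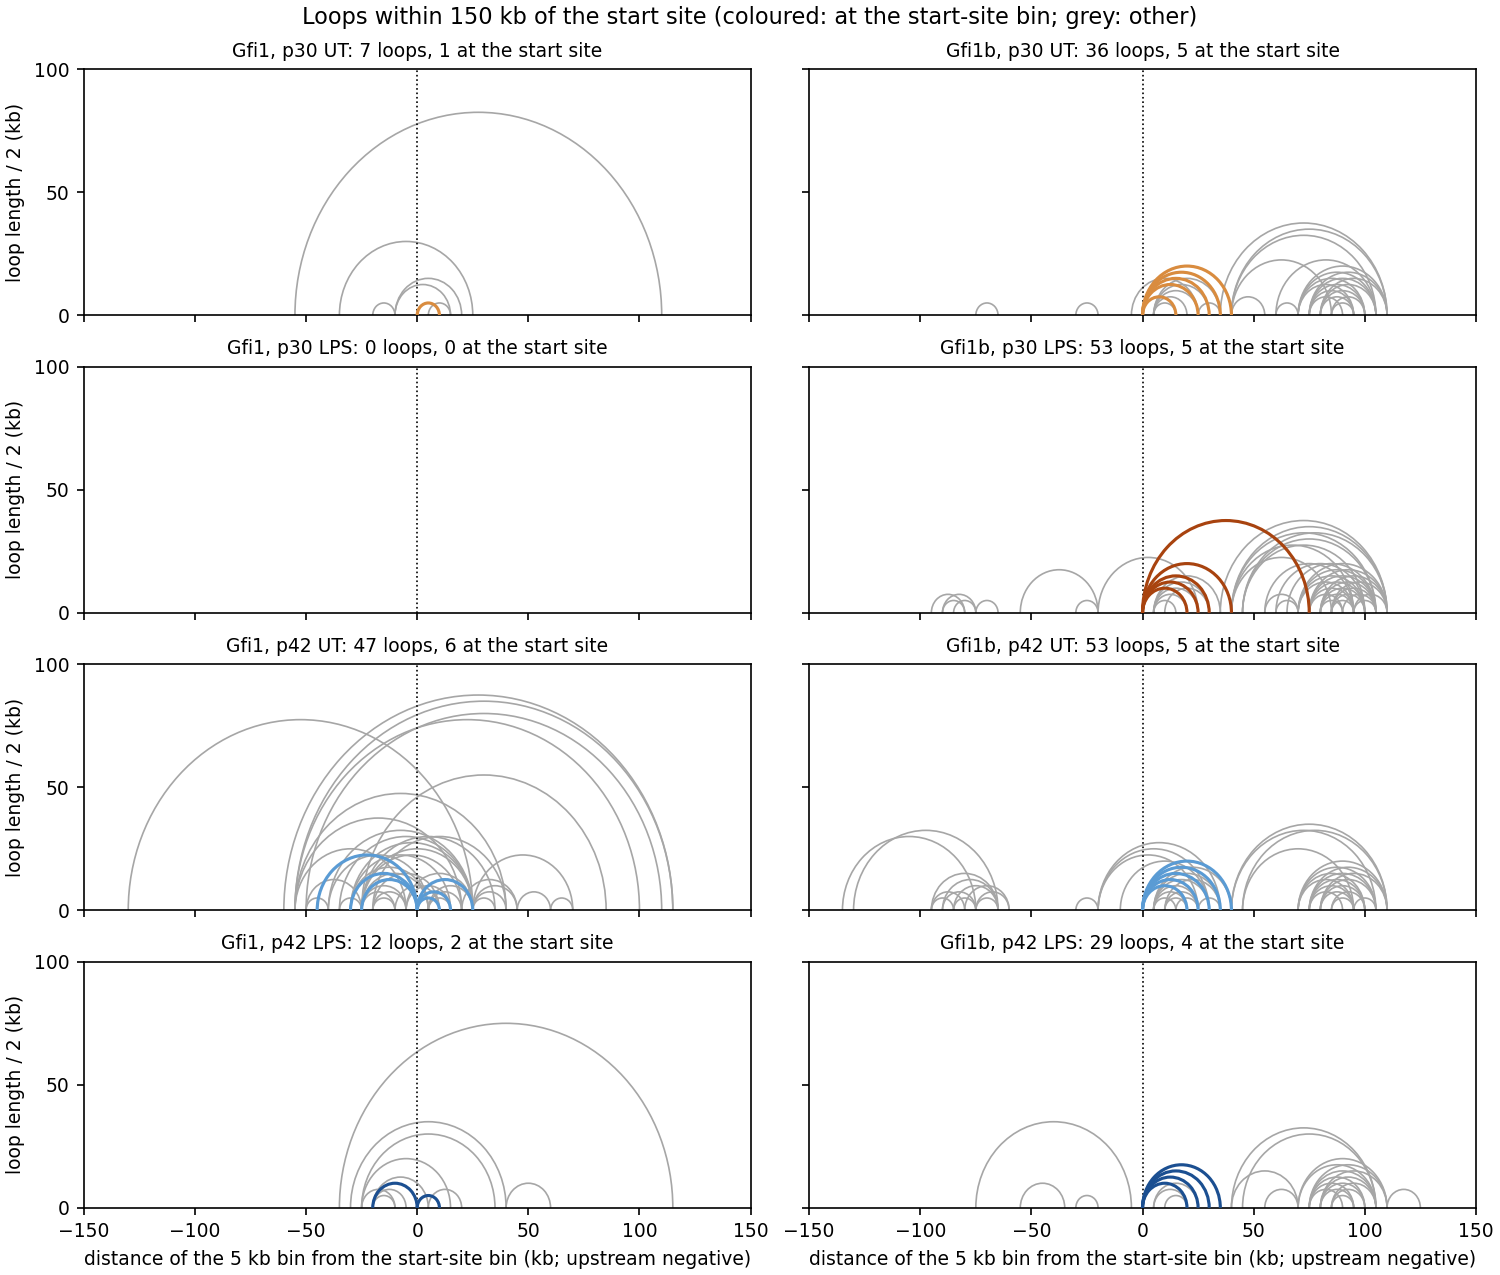
Loops within 150 kb of the start site of Gfi1 (left) and Gfi1b (right) in each list, drawn as arcs over the distance from the start-site bin in kb, with upstream to the left. Coloured arcs touch the start-site bin and grey arcs do not. Gfi1 has arcs to both sides in p42 UT and none in p30 LPS, and the start-site arcs of Gfi1b all point downstream.

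The partner bins of Gfi1 lay on both sides of the gene. The loop found most widely joined the start site to the bin 10 kb downstream, which holds the 3′ end of Gfi1 itself. It had 37 contacts in p30 UT, then 50 with p42 untreated and 31 with p42 after LPS, and was not listed in p30 LPS. Contacts over expected, the observed contacts divided by the caller's expectation for that distance and coverage, were 2.31, 1.87 and 2.17. Relative to all loops listed in both lists, its contacts were 1.05 times as many in p42 UT as in p30 UT (95% Wilson interval 0.689 to 1.60, counting error only), and 0.860 times as many in p42 LPS as in p42 UT (0.551 to 1.34), so both intervals included 1. Set against the caller's expected counts the ratios turned, to 0.809 and 1.16, and those intervals included 1 as well.

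Further downstream, Gfi1 met a bin without an annotated gene and a bin in the lncRNA gene 4930428O21Rik. The bin 15 kb downstream had 31 contacts in p42 UT, 2.74 times the expected number. The bin 25 kb downstream, in an exon of 4930428O21Rik, had 21 contacts in p42 UT, 2.69 times the expected number. Neither loop was in another list. In p30 UT, whose list included both partner bins in other loops, the listed loops of the same distance, with a product of both coverage biases within 10%, had at least 15 contacts for the pair at 25 kb and at least 20 for the pair at 15 kb.

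Upstream, the partner bins of Gfi1 lay inside Evi5, the neighbouring gene. In p42 UT the bin 25 kb upstream had 24 contacts, 3.07 times the expected number, and that 30 kb upstream had 15, 3.05 times the expected number, both in exons of Evi5. The intronic bin 45 kb upstream had 12, and at 4.71 this was the highest ratio of contacts to expectation at the Gfi1 start site. In p42 LPS the upstream partner was instead the bin 20 kb upstream, with 17 contacts at 3.09 times the expected number. No upstream start-site loop was in either p30 list.

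In p42 UT the bins 25 kb upstream and 25 kb downstream were the most connected at the Gfi1 locus and also had its highest coverage. The downstream bin took part in 12 loops and the upstream bin in 10, against 6 for the start-site bin. In p42 LPS the most connected bin was instead that 20 kb upstream, with 4 loops, and in p30 UT that 10 kb upstream, with 3. The pair was itself joined by a loop over the gene, with 29 contacts at 6.00 times the expected number, in p42 UT alone. Of the 47 loops in that list, 23 ran over the start site from one side to the other, 8 lay wholly upstream and 10 wholly downstream, but at equal size these were 6, 5 and 6 of 17. In p42 LPS 5 of 12 and in p30 UT 4 of 7 loops ran over the start site, the same numbers at equal size, so that most of the excess in p42 UT lay in loops with larger q-values.

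**Figure D3:**
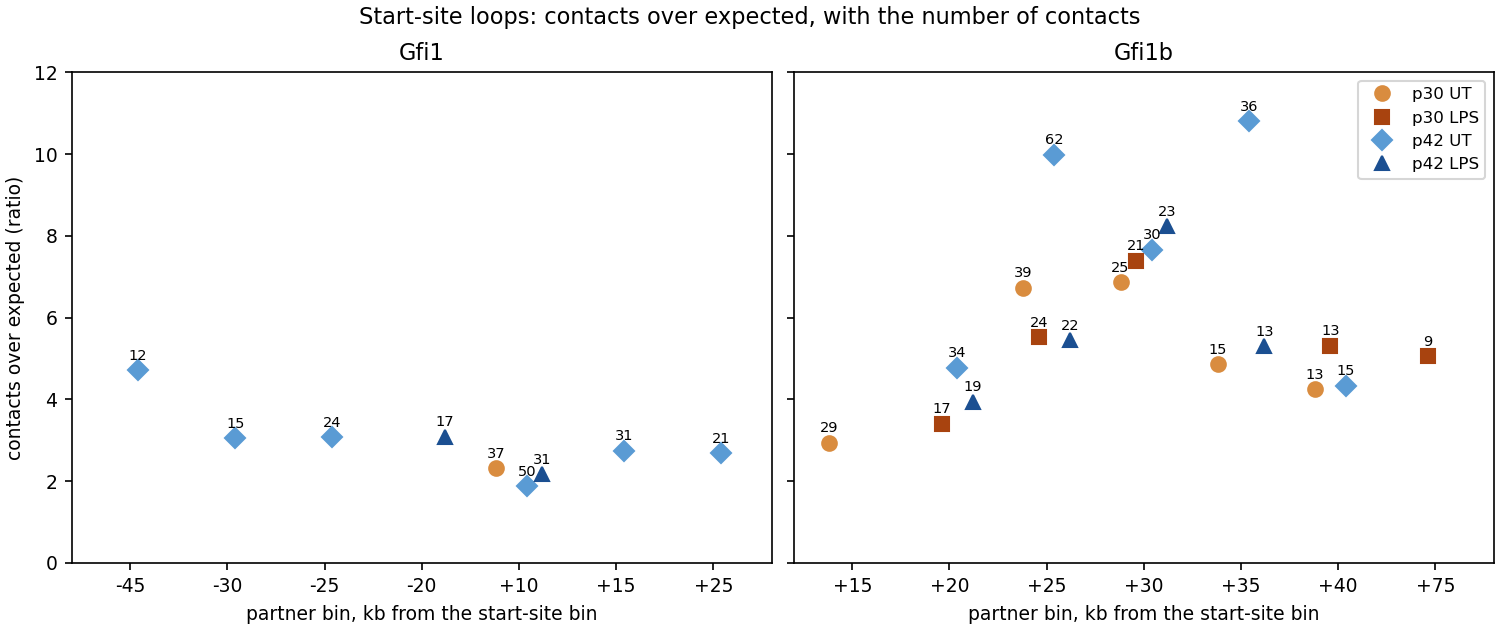
Contacts over expected (vertical axis, a ratio) of each start-site loop of Gfi1 (left) and Gfi1b (right), by the distance of the partner bin in kb and by list. The small numbers are contacts, and a missing symbol means that the pair was not listed. Gfi1 loops lie between 1.87 and 4.71, and the Gfi1b partners at 25 and 30 kb are the only ones with all 4 symbols.

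H3K27ac coverage at Gfi1 was higher in the p42 UT list than in p30 UT. The start-site bin had 1576 reads in p30 UT and 3067 and 1335 in the p42 lists (UT, LPS), and was not listed in p30 LPS. Divided by the median of the peak bins listed in all 4 lists, this was 0.514, 0.818 and 0.541, so p42 UT stood above the other lists that held the bin. All scaled values are relative to this median. Scaling by modelled contacts instead shifts every coverage ratio below by a fixed amount on the log2 scale. The shift is 0.21 (p42 against p30, UT), -0.33 (p42 against p30, LPS), 0.20 (LPS in p30) or -0.34 (LPS in p42). The bin 25 kb downstream had 3254 reads in p30 UT (1.06 after scaling) and 7141 in p42 UT (1.90). The bin 25 kb upstream had 7245 reads in p42 UT (1.93) and 3194 in p42 LPS (1.30).

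Over the 11 peak bins around Gfi1 listed in both untreated lists, scaled coverage was higher in p42 by a median of 1.49 times, with a range from 1.04 to 2.08, and by 1.51 and 1.72 times under the other scalings. It was over 1.5-fold higher in 4 of the 11, against a background of 4.48% of all peak bins listed in both. These 4 were the start-site bin (1.59-fold), the bin 25 kb downstream (1.79-fold), the bin 20 kb upstream in Evi5 (2.08-fold) and the bin 55 kb upstream (1.66-fold). Under the other scalings, which move every bin alike, the count was 6 and 9 of 11, and no background was counted for these. None was over 1.5-fold higher in p30, where the background was 3.82%. Neighbouring bins share fragments and are not independent.

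With LPS in p42 cells, scaled coverage at Gfi1 was lower, by a median of 0.789 times over 15 bins (0.779 and 0.623 times under the other scalings). It was over 1.5-fold higher in p42 UT in 2 of the 15, the start-site bin (0.662 times) and the bin 5 kb upstream (0.644 times), against a background of 0.982%. Under the other scalings the count was 3 and 10 of 15, and again no background was counted for these. The same comparison could not be made in p30, whose LPS list held none of the bins.

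Loop by loop, contacts at Gfi1 did not differ beyond counting error. Of the loops around Gfi1, 4 were listed in both untreated lists and none was called by the two-sided exact binomial test at an adjusted p under 0.05, where 1.34% of all loops were called in either direction. The smallest adjusted p was 0.873, and 0 of 4 had an unadjusted p under 0.05. Of the 6 listed in both p42 lists none was called either, against 0.296% of all loops, with 0 of 6 at an unadjusted p under 0.05. Summed over these loops and relative to all shared loops, contacts were 1.15 times as many in p42 UT as in p30 UT (0.919 to 1.44), and 0.879 times as many in p42 LPS as in p42 UT (0.725 to 1.07). Both turned with the expected counts, to 0.889 and 1.08, with intervals that included 1, whereas with modelled contacts they were 1.40 (1.12 to 1.75) and 0.761 (0.627 to 0.923), with intervals that did not.

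Sequence of the Gfi1 partner bins is shown for the pair with the highest coverage in p42 UT, as windows of 25 bases on each side of each match outside exons to the CEBP-ATF or E-box with GATA pattern. They are printed on the strand of Gfi1 (minus), with capitals for every pattern match inside the window.
Gfi1 25 kb downstream bin, CEBP-ATF, chr5:107845356-107845413: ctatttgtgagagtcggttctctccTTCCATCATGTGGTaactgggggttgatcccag
Gfi1 25 kb downstream bin, E-box with GATA, chr5:107847610-107847675: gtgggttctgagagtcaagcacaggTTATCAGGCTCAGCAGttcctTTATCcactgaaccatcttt
Gfi1 25 kb upstream bin, CEBP-ATF, chr5:107897515-107897572: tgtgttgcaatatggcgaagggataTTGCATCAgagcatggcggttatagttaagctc
Gfi1 25 kb upstream bin, CEBP-ATF, chr5:107897761-107897818: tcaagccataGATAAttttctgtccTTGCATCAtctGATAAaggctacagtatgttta
Gfi1 25 kb upstream bin, E-box with GATA, chr5:107896555-107896619: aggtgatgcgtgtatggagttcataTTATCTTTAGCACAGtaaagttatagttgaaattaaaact
Gfi1 25 kb upstream bin, E-box with GATA, chr5:107896844-107896909: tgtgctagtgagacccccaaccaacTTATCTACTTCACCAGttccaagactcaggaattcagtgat

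The bin 25 kb upstream held 3 matches to the CEBP-ATF pattern, of which 2 are shown because the other lay in an exon, and of all 64985 peak bins 95.8% held fewer. In the second of these windows a GATAA lay on either side of the CEBP-ATF match. The bin 25 kb downstream held 5 AP-1 and 15 GATA matches, with 97.5% and 97.3% of peak bins holding fewer. The start-site bin held 6 CEBP matches, with 97.3% holding fewer. Of all peak bins 50.6% held at least 1 CEBP-ATF match and 85.8% at least 1 CEBP match, and no test was made of these counts.

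The partners of Gfi1b lay on the downstream side of the start site alone. All 7 start-site loops pointed downstream, to bins from 15 to 75 kb away, and none pointed upstream, although the bin 20 kb upstream, with the start site of Tsc1, had the highest scaled coverage of the locus in both untreated lists (2.17 in p30 UT and 2.22 in p42 UT). Tsc1, a brake on mTOR signalling, is the next protein-coding gene upstream. Of the 80 loops around Gfi1b, 51 lay wholly downstream, 17 wholly upstream and 5 ran over the start site.

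The pair of partner bins 25 and 30 kb downstream was found in all 4 lists. The bin at 25 kb, which holds the snRNA gene Gm22675, had 39 and 24 contacts in the p30 lists (UT, LPS), and 62 and 22 in those of p42. Contacts over expected were 6.73, 5.52, 9.99 and 5.45, highest in p42 UT. The bin at 30 kb, without an annotated gene, had 25, 21, 30 and 23 contacts in the same order, and 6.86, 7.39, 7.66 and 8.24 times the expected number. This second loop was the steadier of both, with all 4 ratios within a narrow range.

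The flanking partners of Gfi1b were each absent from at least 1 list. The bin 20 kb downstream, at the start of the lncRNA gene Gm75483, had 17 contacts in p30 LPS, and 34 and 19 in the p42 lists (UT, LPS). The bin at 35 kb, without a gene, had 15 in p30 UT, and 36 and 13 in the p42 lists, and its 10.8-fold excess over expectation in p42 UT was the highest of any start-site loop of either gene. The bin at 40 kb, with the start site of Gtf3c5, a subunit of the RNA polymerase III factor TFIIIC, had 13, 13 and 15 contacts in p30 UT, p30 LPS and p42 UT.

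Loops of Gfi1b found in 1 list only were the nearest and the farthest. The bin 15 kb downstream, with the 3′ end of Gfi1b, had 29 contacts in p30 UT at 2.94 times the expected number. The bin 75 kb downstream, in Ralgds, the gene of an exchange factor for Ral GTPases, had 9 contacts in p30 LPS at 5.06 times the expected number. Both partner bins were listed in other loops of the remaining lists, except that at 15 kb in p42 LPS.

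Relative to all shared loops, the start-site contacts of Gfi1b were fewer with LPS in p42 cells. Over the 4 start-site loops listed in both p42 lists there were 77 contacts in p42 LPS and 162 in p42 UT, a share of 32.2% (26.6% to 38.4%), where all shared loops had 41.9% and the caller's expectation for these 4 gave 40.7%. Relative to all shared loops this was 0.659 times the contacts of p42 UT (0.503 to 0.864), lower on that scale in 3 of the 4 loops, and 0.570 and 0.693 times when scaled by modelled contacts or expected counts, with both intervals below 1. In p30 the ratio of LPS to UT over 3 loops was 0.779 (0.555 to 1.09), whose interval includes 1. These ratios rest on different loops, and over the 2 loops found in all 4 lists they were 0.711 in p42 and 0.713 in p30. The difference between both lines was not tested. Within 150 kb the ratio of LPS to UT was 1.06 in p42 (0.965 to 1.17) and 1.08 in p30 (lower bound 1.00), though that in p42 turned to 0.918 with modelled contacts and 0.866 (0.787 to 0.952) with expected counts, while that in p30 was 1.30 (1.20 to 1.41) and 1.14 (1.06 to 1.24), above 1 on both scales.

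Between isoforms the start-site contacts of Gfi1b did not differ beyond counting error when set against all shared loops. The ratio of p42 to p30 was 1.21 over 4 loops in untreated cells (0.931 to 1.57; 143 and 92 contacts), higher in 2 of 4, and 1.07 over 3 loops after LPS (0.756 to 1.52; 64 and 62 contacts). In UT the scaling decided whether the interval included 1, since the ratio was 1.47 (1.13 to 1.91) with modelled contacts and 1.43 (1.10 to 1.86) with expected counts. After LPS it was 0.946 and 1.08, with intervals that included 1, which does not show that the isoforms act alike. Over all loops within 150 kb the ratios lay below 1, at 0.812 over 29 loops in UT (0.749 to 0.880) and 0.770 over 23 loops after LPS (upper bound 0.845). With expected counts the UT ratio turned to 1.12 (1.04 to 1.22), and that after LPS was 0.883 (0.804 to 0.970).

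No start-site loop of Gfi1b was called by the binomial test in any comparison, and the smallest adjusted p was 0.310, for the loop to 25 kb in p42 LPS against p42 UT (22 and 62 contacts). At an unadjusted p under 0.05 there were 1 of 4 for p42 against p30 in UT, 0 of 3 after LPS, 0 of 3 for LPS in p30 and 2 of 4 for LPS in p42. Among the 29 and 23 loops within 150 kb, 1 was called in each isoform comparison, the same loop between the bins 95 and 85 kb downstream, in Ralgds. By the exact binomial test it had 97 contacts in p42 UT against 132 in p30 UT (adjusted p = 0.00478) and 78 in p42 LPS against 160 in p30 LPS (adjusted p = 3.9e-04). All loops were called in 1.34% of cases in UT and in 0.742% after LPS, and with a null share from the expected counts, which takes up the coverage of the bins, neither call held, whereas among the 19 loops in all 4 lists 3 were called in UT and 1 after LPS. With LPS none was called within 150 kb, of 30 loops in p30 (background 0.317%) and of 22 in p42 (background 0.296%). At an unadjusted p under 0.05 there were 4 of the 30 and 7 of the 22. The backgrounds hold for the adjusted p only. The share of all shared loops at an unadjusted p under 0.05 was not counted, so the unadjusted counts have no background.

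Coverage of the Gfi1b start-site bin was below the list median in all lists. It had 1833, 1427, 2535 and 1356 reads, and 0.598, 0.503, 0.676 and 0.550 after scaling. Among start-site bins with a loop, 8.06% to 22.7% were lower in the 4 lists. The partner bin at 25 kb had more, with 4618, 3984, 4890 and 2292 reads in the same order, and 1.51, 1.40, 1.30 and 0.929 after scaling. It was the highest within 45 kb downstream in all 4 lists.

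The coverage around Gfi1b fell into stretches that did not move together. Over the start-site bin and the downstream bins to 45 kb, scaled coverage in p42 was 0.866 times that in p30 in UT (median of 8 bins) and 0.887 times after LPS (9 bins). Under scaling by modelled contacts the UT ratio was 1.00 and the LPS ratio 0.706. With LPS it was 0.880 times in p30, lower in all 8 bins but 1.01 times by modelled contacts, and 0.843 times in p42, lower in all 9 bins and 0.665 times by modelled contacts. Over the 9 bins from 70 to 110 kb downstream, in Ralgds, it was 1.29 times with LPS in p30 and 1.26 times in p42, higher in all 9 bins of each, and 1.49 and 0.997 times by modelled contacts, so that the direction in p42 depends on the scaling.

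In the Ralgds stretch the level was lower in p42. The ratio to p30 was 0.699 in UT and 0.753 after LPS, with the highest of the 9 bins at 0.733 and 0.848, and 0.809 and 0.599 by modelled contacts. Its bin 85 kb downstream had 4395 and 7315 reads in the p30 lists (UT, LPS), and 3484 and 4425 in those of p42. After scaling these were 1.43, 2.58, 0.929 and 1.79, and both the reads and the scaled values of each LPS list stood above those of the untreated list of the same line.

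Of 22 peak bins around Gfi1b listed in both untreated lists, 3 were over 1.5-fold higher in p30, the bins 75, 80 and 85 kb downstream in Ralgds, against a background of 3.82%. After LPS it was 2 of 24, the Gfi1b partner bin at 25 kb (0.662 times in p42) and the bin at 100 kb (0.614 times), against 2.97%. With LPS 1 of 24 was over 1.5-fold higher in p30 (the bin at 85 kb, 1.80-fold; background 2.36%) and 3 of 21 in p42 (the bins at 80, 85 and 90 kb; background 1.76%). The bin 75 kb upstream, at the start site of Spaca9, was over 1.5-fold lower with LPS in p42 (0.593 times; 1 of 21, background 0.982%). By modelled contacts these 5 counts, in the order given, were 0 of 22, 14 of 24, 4 of 24, 1 of 21 and 7 of 21. That scaling moves every bin alike. The share of all peak bins past the limit was not counted under it, so these 5 counts have no background.

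**Figure D4:**
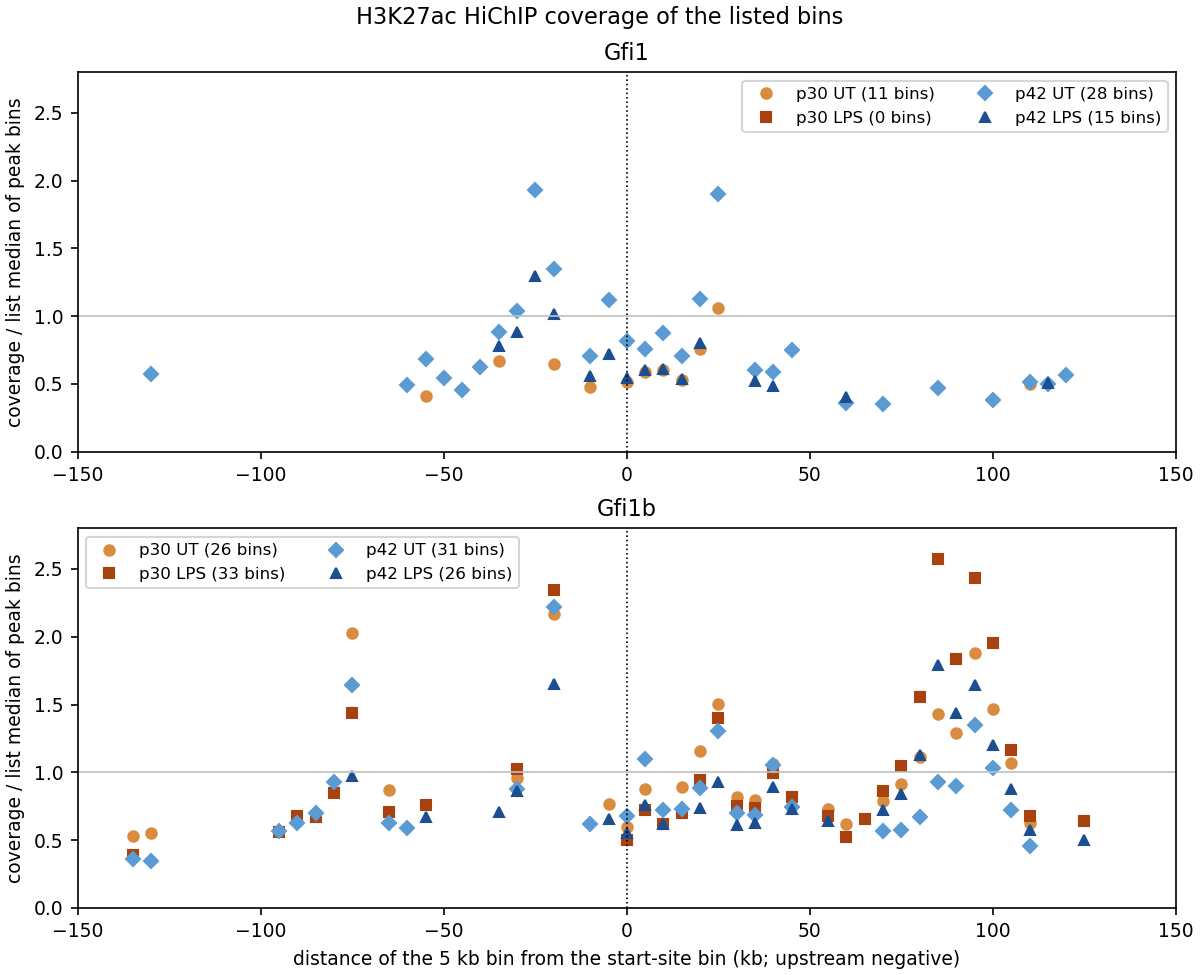
Coverage of each listed 5 kb bin, divided by the list's median over peak bins found in all 4 lists, by distance from the start-site bin of Gfi1 (top) and Gfi1b (bottom) in kb. Each symbol is 1 bin in 1 list. Around Gfi1 the p42 UT symbols reach 1.93 and 1.90 at the bins 25 kb upstream and downstream, and around Gfi1b the p30 LPS symbols reach 2.58 at 85 kb downstream.

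The loops inside both stretches are counted apart. With both bins from 0 to 45 kb downstream of Gfi1b there were 11, 10, 16 and 7, of 18 different loops. With both bins in the Ralgds stretch there were 15, 21, 16 and 14, of 21 different loops with 13 in all 4 lists. Loops between the stretches numbered 4, 9, 4 and 3. The list of p30 LPS had the most in the last 2 classes, and these counts were not tested.

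Sequence of the Gfi1b partners is shown for the bins at 25 and 30 kb, which were looped to the start site in all 4 lists, as windows around each match outside exons to the E-box with GATA or CEBP-ATF pattern, on the strand of Gfi1b (minus).
Gfi1b 25 kb downstream bin, E-box with GATA, chr2:28488306-28488372: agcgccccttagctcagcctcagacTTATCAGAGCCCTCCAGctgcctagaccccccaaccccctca
Gfi1b 25 kb downstream bin, E-box with GATA, chr2:28489423-28489488: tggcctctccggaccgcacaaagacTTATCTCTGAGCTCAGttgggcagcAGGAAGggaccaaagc
Gfi1b 25 kb downstream bin, E-box with GATA, chr2:28489520-28489585: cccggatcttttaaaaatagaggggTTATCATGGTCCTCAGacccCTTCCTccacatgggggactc
Gfi1b 30 kb downstream bin, CEBP-ATF, chr2:28484403-28484460: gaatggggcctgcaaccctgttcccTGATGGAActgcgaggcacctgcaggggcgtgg

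The bin at 25 kb held 3 E-box with GATA matches, and 98.7% of all peak bins held fewer. It also held 19 ETS matches, with 96.8% holding fewer. Of all peak bins 37.1% held at least 1 E-box with GATA match. The bin at 30 kb held 5 AP-1 matches, with 97.5% holding fewer, 1 CEBP-ATF match, and no CEBP or E-box with GATA match. The Gfi1b start-site bin held 10 RUNX matches, with 97.4% holding fewer.

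The start-site bin of Gfi1b was listed in all 4 lists, so its pattern of coverage could be set beside that of other genes. Over 6339 protein-coding genes with a start-site bin in all 4, the smallest root mean square differences from Gfi1b (log2 scaled coverage, centred on the mean of the 4 lists) were 0.013 for Cux1, 0.015 for Dtx3, 0.019 for Rcsd1, 0.020 for Hmgn2 and 0.020 for Slc35b4. The pattern has 4 values only, and the likeness is a description. It could not be computed for Gfi1.

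Genes of the repressor complex were counted by their own start-site loops. Of 14 cofactor genes, 10, 10, 12 and 9 had a start-site loop in the lists, where 37.2%, 38.7%, 44.8% and 35.1% of all 21770 protein-coding genes had one. The most, 86 summed over the lists, were at Gse1, and Hdac2 and Runx1t1 had none. Kdm1a, the demethylase, had 0, 0, 1 and 1, and Rcor1 had 7, 7, 11 and 5. Of the 12 cofactor genes with a start-site loop in any list, 11 had more in p42 than in p30 in UT and 1 had fewer, where 79.0% of the 10526 genes with such a loop in any list had more. At equal size 4 had more and 4 fewer, and 3736 of the 10526 had more and 3377 fewer.

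After LPS the balance was the other way. Of these 12 cofactor genes, 10 had fewer start-site loops in p42 than in p30 and 1 had more, where 51.0% of the 10526 genes had fewer and 20.5% more. At equal size it was 8 fewer and 1 more, with 4132 fewer and 2976 more of the 10526.

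Of 14 genes for factors known to act on Gfi1 or Gfi1b enhancers, 13 had start-site loops in p30 UT, p30 LPS and p42 UT and 12 in p42 LPS, beside the same shares of all genes as above. Gata2, Tal1, Lyl1, Lmo2, Fli1, Erg, Runx1, Spi1 and Meis1 were also among the 12 progenitor marker genes. These counts therefore largely repeat the cell type check. Meis1 was in the target list below as well. Lyl1 had the most, 66 summed over the lists. Cebpa itself had 10, 5, 11 and 5, and Erg had 10, 10, 26 and 19. In UT more loops were found with p42 at 12 of the 13 with a loop in any list and fewer at 1, where 79.0% of the 10526 genes had more, and 8 and 2 at equal size, beside 3736 and 3377 of the 10526. With LPS in p42 cells 12 had fewer and none more, where 82.7% of the 10526 had fewer, and at equal size 8 had fewer and 3 more, beside 4031 and 2760. After LPS 4 had more in p42 than in p30 and 6 fewer, where 20.5% of the 10526 had more and 51.0% fewer. At equal size it was 6 and 5, beside 2976 and 4132.

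Of 20 genes known as targets of GFI1 or GFI1B, 19 were found in the annotation. Start-site loops were present at 12, 14, 15 and 12 of them, beside 37.2%, 38.7%, 44.8% and 35.1% of all genes. Bcl2l1, an inhibitor of apoptosis, had 27, 27, 28 and 25, and Cdkn1a, the cell-cycle inhibitor p21, had 27, 28, 29 and 22. Gata3, Hoxa9 and Irf8 had none. Csf1r, the receptor for macrophage colony-stimulating factor, had 0, 1, 6 and 3, and 0, 1, 3 and 3 at equal size. In UT 14 of the 16 with a loop in any list had more in p42 and 1 fewer, where 79.0% of the 10526 genes had more, and 7 and 4 at equal size, beside 3736 and 3377 of the 10526. After LPS 5 had more in p42 than in p30 and 8 fewer, where 20.5% of the 10526 had more and 51.0% fewer. At equal size it was 7 and 4, beside 2976 and 4132. Differences between the gene lists were not tested.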

How the data were processed

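H3K27ac HiChIP reads were mapped by the authors with BWA-MEM 0.7.17 (mouse, build mm39), ligation products were recorded and duplicates removed with pairtools, and loops were called with FitHiChIP in 5 kb bins at a q-value under 0.01. How the 2 replicates per group were pooled is not given in the sources used here. The deposited contact count gives unnormalized ligation products for a bin pair. The deposited expected count is the caller's estimate from distance and coverage. The deposited contact probability, a fraction, divides that estimate by all modelled contacts. Deposited coverage counts the reads in a bin, and the deposited coverage bias is a ratio to the mean of bins of the same kind. The deposited q-value comes from the caller's binomial p-value. The lists hold significant pairs alone, which favours deeper and brighter bins.

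Python 3.11.15 with numpy 2.4.6, pandas 2.3.3 and scipy 1.17.1 was used. Start sites were those of canonical transcripts. Contacts over loops shared by 2 lists were compared as a share with a 95% Wilson interval. The share and its bounds were turned into odds (contacts of one list over those of the other) and divided by the odds of all shared loops, which gives the printed ratios. For single loops an exact binomial test (two-sided) was used, adjusted by Benjamini-Hochberg over all shared loops, a comparison of pooled lists that was first tested on simulated data. Coverage was divided by the list's median over 31321 peak bins found in all 4 lists, and changes over 1.5-fold were named. Intervals cover counting error only. Members and gene lists were chosen with earlier results of these data known. Named genes were the members, the genes in their partner bins, the 5 most alike in coverage, and per list those with the most, the fewest or no start-site loops; Kdm1a, Rcor1, Cebpa, Erg, Cdkn1a and Csf1r were added after their values were seen. Motif counts in the Gfi1 bins, and the choice of windows shown, were also made after the data were seen. The counts of 1 named gene and 1 sequence window are not reported here. Alternatives were stricter q-values, equal list sizes, wider bins, other windows, scalings and null shares.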

Additional observations from a re-analysis of the deposited data

Results flagged for a closer look

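Around Gfi1b the number of loops within 150 kb moved in opposite directions with LPS in both lines. It went from 36 to 53 in p30, a log2 change of 0.56, and from 53 to 29 in p42, a log2 change of -0.87. The difference was -1.43 and was not tested, since each group is 1 pooled list. The lists as a whole moved likewise, by 0.23 in p30 and by -1.01 in p42, or -1.24 between both. With equally long lists the changes were 0.35 and 0.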

How the results depend on the processing

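No paired analysis was possible because each group was deposited as 1 pooled list without replicate numbers, and for the same reason no replicate could be left out. Of 116 values under the alternatives, 85 stayed within 1.5 times of a count or within the counting interval of a ratio, and 31 moved. Some ratios crossed 1. With expected counts, contacts at the Gfi1 start site went from 1.05 to 0.809 for p42 against p30 in UT. For LPS in p42 they went from 0.860 to 1.16. With modelled contacts, those at the Gfi1b start site went from 1.07 to 0.946 for p42 against p30 after LPS. A coverage ratio that also crossed 1 is given below. At a q-value under 0.001, start-site loops of Gfi1 became 2 with p42 UT and 0 with p42 LPS, and those of Gfi1b 3 in p30 LPS. At a q-value under 1e-05 they became 0 in p30 UT, p42 UT and p42 LPS for Gfi1, and 2 in p30 UT, p30 LPS and p42 LPS for Gfi1b. In lists of equal size, Gfi1 had 0 start-site loops in p42 UT, and loops within 150 kb became 17 for Gfi1 and 29 for Gfi1b in that list. With 1 bin added on each side, start-site loops were 2 in p30 UT, 17 in p42 UT and 5 in p42 LPS for Gfi1, and 11, 10, 11 and 7 for Gfi1b. Without loops under 20 kb, Gfi1 had 0 in p30 UT and 1 in p42 LPS. In a window of 100 kb, Gfi1b had 19 loops in p42 LPS. The single loop near Gfi1b called by the binomial test in each isoform comparison became 0 with a null share from expected counts, in UT and after LPS, and 3 in UT among loops in all 4 lists. With coverage scaled by modelled contacts, the start-site bin of Gfi1 gave 1.84 for p42 against p30 in UT and 0.522 for LPS in p42. That of Gfi1b gave 1.31 for p42 against p30 in UT, 0.871 after LPS (1.09 before, so the direction turned), 0.965 for LPS in p30 and 0.642 for LPS in p42. The cause of these shifts was not tested. Contacts of 9 to 62 per start-site loop limit single ratios to wide intervals, and the deepest and longest list, p42 UT, also held the most Gfi1 loops.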
